A study of Mus musculus with 6 samples.

Results

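The isolated sites described here are the small places on a CpG island array: stretches of the mouse genome covered by only 1 or 2 probes. They were found by joining probes on chromosomes 1 to 19 whose starts lay no more than 500 bp apart and keeping the runs that held 1 or 2 probes. Of 15098 runs in all, 1657 were isolated sites, 627 of them with 1 probe and 1030 with 2 probes, and the other 13441 runs had 3 or more probes. Neither methylation nor genotype entered this choice.

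CpG islands are short stretches of DNA rich in the CG dinucleotide. Most of those at gene starts carry little methylation in normal tissue, while CpGs outside islands and on their margins are methylated more often. MeDIP uses an antibody to 5-methylcytosine to capture methylated DNA fragments, and the yield rises with the number of methylated CpGs in a fragment. A site covered by 1 or 2 probes is therefore read from few spots, and its value also depends on how many CpGs its fragments hold.

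Liver DNA came from 12-month-old FVB males, 3 Mdr2-KO mice and 3 Mdr2-/+ mice, each mouse on its own array. Mdr2, also called Abcb4, moves phosphatidylcholine into bile, and mice without it develop chronic liver inflammation. The controls carried 1 deleted allele and came from crosses of Mdr2-KO (FVB.129P2-Abcb4tm1Bor) with FVB/NJ mice. Whole liver was used, so all of its cell types are read together, and a change in cell makeup and a change within cells cannot be told apart. According to the labels, the Cy5 channel held MeDIP DNA and the Cy3 channel that liver's input DNA. The level of a site is its log2 ratio of MeDIP over input signal, taken relative to the array's median and averaged over its probes, so that 0 is the middle of an array. Replicate 1 of both genotypes shared a slide, Mdr2-/+ replicates 2 and 3 another, and Mdr2-KO replicates 2 and 3 the remaining slide, so that slide and genotype cannot be told apart for those 4 arrays.

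Isolated sites had higher levels than longer runs in every liver. Their median level was 0.39, 0.26 and 0.28 in Mdr2-/+ replicates 1, 2 and 3, and 0.30, 0.31 and 0.27 in Mdr2-KO replicates 1, 2 and 3. For runs of 3 or more probes the median level lay between -0.15 and -0.09. The 2 ranges did not overlap, and the isolated sites stood 0.43 ± 0.04 (SD, n = 6 livers) above the longer runs, with the difference above 0 in 6 of 6 livers (p = 0.03125, exact two-sided sign-flip test over livers, the smallest value that 6 livers allow). After normexp background correction of the raw signals this difference was 0.15 ± 0.11 (SD, n = 6 livers; p = 0.0625, the same exact test). It then did not have the same sign in all 6 livers. It was 0.14 where probes were joined only up to 250 bp and 0.68 where they were joined up to 1000 bp (p = 0.03125 for each, the same exact test).

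Sites of 1 probe had the higher levels among the isolated sites. The median level of 1-probe sites was 0.63, 0.43 and 0.45 in Mdr2-/+ replicates 1 to 3, and 0.52, 0.48 and 0.42 in Mdr2-KO replicates 1 to 3. At 2-probe sites it was 0.23, 0.16 and 0.15 in the Mdr2-/+ livers and 0.22, 0.22 and 0.18 in the Mdr2-KO livers. Level thus fell from 1 probe to 2 probes to 3 or more in each of the 6 livers, while the 2 genotypes overlapped at both kinds of isolated site. The 1-probe sites stood 0.29 ± 0.06 (SD, n = 6) above the 2-probe sites, and the 2-probe sites stood 0.32 ± 0.03 (SD, n = 6) above the longer runs (p = 0.03125 for each, exact sign-flip test). In all, 17 such differences in level or signal were tested over livers, and each of them had p = 0.03125 in the exact sign-flip test before and after adjustment. These tests ask whether a difference holds across arrays of 1 design, where every array carries the same probes.

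**Figure D1:**
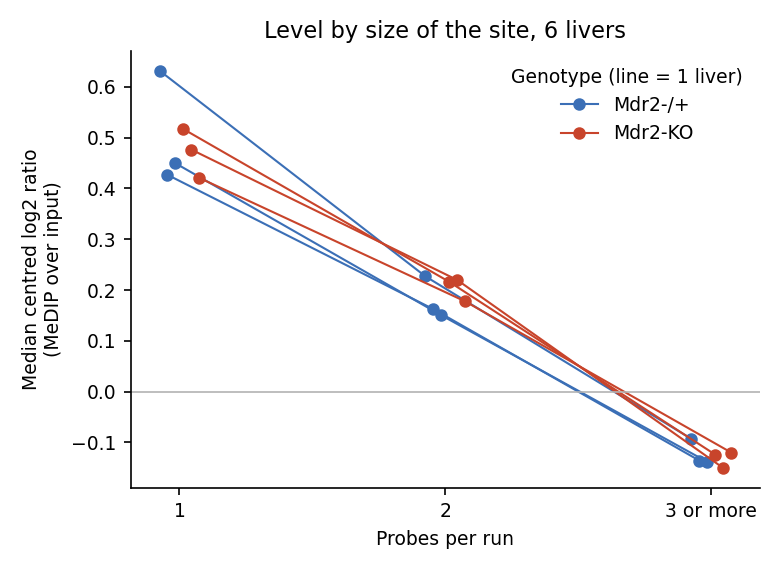
Median level of the runs of 1, 2 and 3 or more probes (horizontal axis) as the centred log2 ratio of MeDIP over input (vertical axis). Each line joins the 3 medians of 1 liver, Mdr2-/+ in blue and Mdr2-KO in red, and in each of the 6 livers the level falls from left to right.

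The isolated sites reached further into the methylated range. Taking the mean of the 6 livers, 20.8% of isolated sites had a level above 2, against 11.6% of longer runs. The share was 24.6% at 1-probe sites and 18.5% at 2-probe sites. At the other end, 40.6% of isolated sites and 57.4% of longer runs lay below 0. The upper quartile of the levels was 1.07 ± 0.13 (SD, n = 6) higher at isolated sites than at longer runs (p = 0.03125, exact sign-flip test). Both channels differed. Relative to the median of its array the MeDIP signal of isolated sites was 0.35 higher on the log2 scale than that of longer runs and the input signal changed by -0.16, with the same sign in 6 of 6 livers for each.

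**Figure D2:**
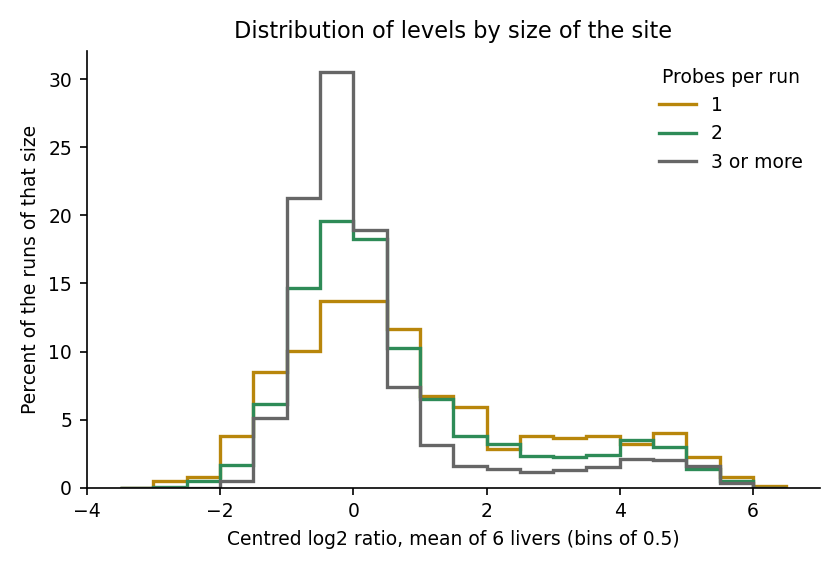
Percent of the runs of each size (vertical axis) by level, the centred log2 ratio averaged over 6 livers, in bins of 0.5 (horizontal axis). Runs of 3 or more probes (grey) peak just below 0, while 1-probe sites (ochre) and 2-probe sites (green) are spread more widely, with 24.6% and 18.5% of them above 2.

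The genotypes overlapped at the isolated sites with the highest levels. Among the 1150 isolated sites whose input signal was well above background on all 6 arrays, the highest was a 1-probe site at chr9:99303747-99303805 (mm8 build, as for all positions here). Its level was 6.81, 5.89 and 5.76 in Mdr2-/+ replicates 1 to 3, and 6.63, 5.96 and 6.49 in Mdr2-KO replicates 1 to 3. The order of the livers was mixed there, as it was at the next highest sites, chr17:39456527-39456733 with a mean level of 5.88 and chr7:45562024-45562303 with a mean level of 5.87, both of 2 probes. The lowest was the 1-probe site chr1:179095154-179095208 with a mean level of -2.88, where no array had MeDIP signal well above background. A 2-probe site at chr11:98610907-98611041 followed with -2.69, and a 1-probe site at chr6:72829110-72829154 with -2.67. None of these 6 sites passed the test between genotypes described below.

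Isolation took different forms, since some of these sites stood alone in the genome and others lay just beyond the joining distance of a neighbouring run. The distance to the nearest other probe, from start to start, had a median of 5612 bp and ran from 501 bp to 2477275 bp. It was under 1 kb at 607 sites (36.6%), 1 to 10 kb at 357 sites (21.5%) and over 10 kb at 693 sites (41.8%). The files pair no probe with a gene or an island, so which genes these sites belong to was not analysed here.

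The level of the isolated sites rose with this distance. The median level, from the means of the 6 livers, was -0.02 for sites with another probe under 1 kb away, 0.47 at 1 to 10 kb and 0.58 at over 10 kb. Only 5.78% of the sites with a neighbour under 1 kb away had a level above 2, against 29.1% of those more than 10 kb away. Within each liver, the median of the remote sites was 0.62 ± 0.11 (SD, n = 6) above that of the close ones, or 0.17 after normexp (p = 0.03125 for each, exact sign-flip test). The gradient was steepest for single probes, whose median level went from -0.04 to 0.74 to 1.37 over the 3 distances, while that of 2-probe sites went from -0.02 to 0.34 to 0.28. The gap between the outer classes was 1.38 ± 0.17 (SD, n = 6) for 1-probe sites and 0.37 ± 0.03 (SD, n = 6) for 2-probe sites. For longer runs the medians were -0.17, 0.02 and -0.17, with no such order. As a result the isolated sites stood 0.76 ± 0.12 (SD, n = 6) above longer runs when both were more than 10 kb from other probes, and 0.14 ± 0.02 (SD, n = 6) when both had a neighbour under 1 kb away (p = 0.03125 for each, exact sign-flip test).

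Sites close to a longer run were set beside it. There were 309 isolated sites whose nearest run within 1 kb held 3 or more probes, and their median level within a liver exceeded that of the neighbour by 0.06 ± 0.04 (SD, n = 6; p = 0.03125, exact sign-flip test). Of these 309 sites, 52.1% had the higher level of the pair. Across these sites the levels of site and neighbour had r = 0.55 and their genotype differences r = 0.47. These are correlations across sites, which share arrays and can share a neighbour. The edges of longer runs were compared as well. Probes at either end of a longer run stood 0.14 ± 0.07 (SD, n = 6) above the inner probes, but 1-probe sites stood a further 0.42 ± 0.05 (SD, n = 6) above those end probes, and the probes of 2-probe sites 0.24 ± 0.02 (SD, n = 6) above them (p = 0.03125 for each, exact sign-flip test).

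The 2 probes of a 2-probe site did not always tell the same story. Their starts were 61 to 500 bp apart, with a median of 157 bp. At 69.1% of the 1030 sites both probes were on the same side of 0, and over sites their levels had r = 0.76. The median distance between the 2 levels was 0.71, and 36.2% of sites had levels more than 1 apart. For the genotype difference the share on the same side of 0 was 59.6% and r was 0.35, again as a description across sites that share arrays.

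Fewer probes came with more scatter between mice. The median residual SD between livers of 1 genotype was 0.35 at 1-probe sites, 0.26 at 2-probe sites and 0.17 at longer runs. A mean over more probes has a smaller SD by construction, so single probes were compared as well. When single probes were fitted in place of runs, the median residual SD was 0.35 for the probes of 1-probe sites, 0.30 for those of 2-probe sites and 0.29 for those of longer runs. By the scanner software's own call, input was well above background for 73.2% to 82.9% of 1-probe sites over the 6 arrays, and for 86.3% to 91.8% of the probes in longer runs. Whether dim input had a part in the scatter was not tested.

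The comparison of Mdr2-KO with Mdr2-/+ livers asked whether chronic inflammation came with altered methylation at these sites. Taken as a class, the isolated sites did not shift by more than the spread between livers. Their median level differed by -0.02 between genotypes, at 0.29 ± 0.02 (SD, n = 3) in Mdr2-KO and 0.31 ± 0.07 (SD, n = 3) in Mdr2-/+ livers (p = 0.9, exact permutation test over livers, two-sided, which cannot go below 0.1 with 3 against 3). The shift of longer runs was -0.01 (p = 0.7, same exact test), and the shifts of the 2 classes differed by -0.01 (p = 1, same exact test). The upper quartile of the isolated sites was 1.70, 1.32 and 1.21 in Mdr2-/+ replicates 1 to 3, and 1.74, 1.74 and 1.63 in Mdr2-KO replicates 1 to 3. Mdr2-/+ replicate 1 thus fell among the Mdr2-KO livers, and the means of 1.70 ± 0.06 (SD, n = 3) and 1.41 ± 0.26 (SD, n = 3) had p = 0.2 in the exact permutation test. Over the 8 genotype comparisons of this kind all adjusted p-values were 1 by the same exact test.

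At single sites more calls ran toward higher than toward lower levels in the Mdr2-KO liver. With limma fitted over all runs, 43 of the 1656 isolated sites with a value were called higher in Mdr2-KO livers (2.60%) and 12 lower (0.725%), at an adjusted p under 0.05. Over all 15097 runs tested, 3.50% were called higher and 0.166% lower. The site without a value was chr5:150942847-150942891, whose only probe had an outlier spot. Rises made up 78.2% of the calls at isolated sites, and this share was 58.3% at 1-probe sites (14 rises and 10 falls), 93.5% at 2-probe sites (29 and 2) and 97.4% at longer runs (486 and 13). The differences between these shares were not tested. After quantile normalization between arrays the calls at isolated sites were 77 higher and 72 lower, so that 51.7% were rises. After loess within arrays they were 19 and 5, and after normexp no isolated site was called, where an unadjusted limma p under 0.05 gave 234 higher and 43 lower. Before normexp that threshold gave 208 higher and 109 lower of 1656 isolated sites. Over all 15097 runs tested it gave 2151 higher (14.2%) and 805 lower (5.33%). By the same threshold falls outnumbered rises after quantile normalization, with 187 higher and 284 lower, and with the slide as a fixed block, with 108 higher and 228 lower. In these 2 settings the median difference was -0.08 and -0.13 at isolated sites, and -0.07 and -0.04 over all runs. Without either setting these medians were 0.03 and 0.01. Whether the excess of falls was particular to isolated sites was not tested. The deposited scores, which covered 1266 of the isolated sites, gave 198 and 199.

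The calls rested on particular livers, at isolated sites and at longer runs alike. Without Mdr2-KO replicate 1 there was no call in either direction, where an unadjusted p under 0.05 gave 144 higher and 95 lower. Without Mdr2-/+ replicate 1 there were 314 higher and 59 lower, and without Mdr2-/+ replicate 3 there were 3 higher and 0 lower. Leaving out Mdr2-/+ replicate 2 gave 7 and 2 calls, Mdr2-KO replicate 2 gave 6 and 3, and Mdr2-KO replicate 3 gave 26 and 1. At longer runs, with 486 higher and 13 lower from all livers, there were 2 and 0 without Mdr2-KO replicate 1. Without Mdr2-/+ replicate 1 longer runs gave 2374 and 228 calls, and without Mdr2-/+ replicate 3 they gave 22 and 1. When each size class had its own estimate of the spread, 28 sites were called higher and 3 lower, all of them among the 43 and the 12.

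The 2 genotypes did not overlap at any of the 55 called sites. Without regard to the test, 12.3% of isolated sites had all Mdr2-KO livers above all Mdr2-/+ livers and 8.88% had them all below, against 15.6% and 10.5% of all runs tested. On the shared slide, 38.0% of all isolated sites and 45.5% of longer runs were higher in Mdr2-KO replicate 1 than in Mdr2-/+ replicate 1. With the slide as a fixed block 1 site was called higher and 1 lower, and the median difference over isolated sites was -0.13, against 0.03 without the block. By the threshold on the Z-score, where Z is the level in units of the array's SD, delta Z reached 0.7 or more at 23 isolated sites (1.39%) and -0.7 or less at 8 (0.483%), against 1.33% and 0.0861% of all runs tested.

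**Figure D3:**
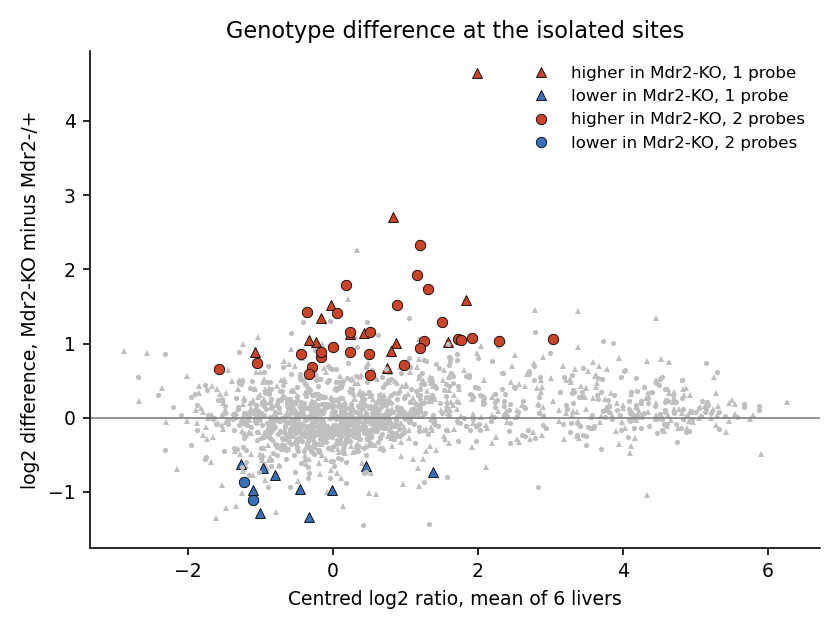
Difference between genotypes (log2, Mdr2-KO minus Mdr2-/+, vertical axis) against the mean level of 6 livers (centred log2 ratio, horizontal axis) at the 1656 isolated sites tested. Triangles are 1-probe and circles 2-probe sites, red for the 43 called higher, blue for the 12 called lower and grey for the rest. The falls lie mostly at levels below 0, and 2 of the 43 rises lie above 2.

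Rises and falls at isolated sites were found at different levels of methylation. Of the 43 sites called higher, 28 had a mean level between 0 and 2, 13 lay below 0 and 2 above 2. Their median level went from -0.14 in Mdr2-/+ to 1.08 in Mdr2-KO livers. By band, 1.93% of the isolated sites below 0 were called higher, 4.39% between 0 and 2, and 0.580% above 2. For longer runs these shares were 1.13%, 7.65% and 5.15%. Of the 12 sites called lower, 10 lay below 0, against 40.6% of all isolated sites. By band, 1.49% of the isolated sites below 0 were called lower, 0.313% between 0 and 2, and 0 above 2. Of the 13 longer runs called lower, 8 lay below 0, near the 57.4% of all longer runs that lay there. The median level of the 12 sites went from -0.38 to -1.24. The median log2 difference was 1.05 over the called rises and -0.91 over the called falls, where the call itself used this difference. At 27 of the rises it was 1 or more, and at 3 of the falls, all of them dim sites described below, it was -1 or less.

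Signal strength differed between the 2 lists. Among the 43 rises, the MeDIP signal was above background on all 6 arrays at 40 sites, and on no Mdr2-/+ array at 2 sites. Among the 12 falls it was above background on all 6 arrays at 6 sites, on no array of either genotype at 4 sites, and on no Mdr2-KO array at 5 sites. The input signal was above background on all arrays at 38 of the 43 rises, 8 of the 12 falls and 69.4% of all isolated sites tested. The part of dim signal in the falls was not tested.

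The largest rise was at a lone probe on chromosome 13, chr13:24646363-24646407, with no other probe within 122651 bp. Its level was 0.96, -1.27 and -0.67 in Mdr2-/+ replicates 1 to 3, and 4.36, 4.32 and 4.26 in Mdr2-KO replicates 1 to 3. The 3 Mdr2-KO livers lay close together and far above the 3 controls, which were scattered, with Mdr2-/+ replicate 1 the highest of them. That is a difference of 4.64 with a standard error of 0.49 (limma, adjusted p = 0.00958). On the shared slide alone it was 3.40. Leaving out Mdr2-/+ replicate 3 ended the call, and so did leaving out Mdr2-KO replicate 1. The call was also lost after loess, with a difference of 1.74, and after normexp, with 3.39. It was the 1 rise named here that was still called with the slide as a fixed block.

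A 1-probe site on chromosome 15, chr15:85861932-85861976, lay 559 bp from a run of 10 probes. Its level was -0.26, -0.74 and -0.56 in Mdr2-/+ replicates 1 to 3, and 2.07, 2.84 and 1.64 in Mdr2-KO replicates 1 to 3. All controls were below 0 and all Mdr2-KO livers above 1, and the means were 2.70 apart with a standard error of 0.29 (limma, adjusted p = 0.00999). After loess the difference was 0.32 and the call was lost, as it was after normexp, with the slide as a fixed block, and without Mdr2-/+ replicate 3 or Mdr2-KO replicate 1. The run beside it, which had a mean level of 2.99, was also called higher, with a difference of 1.47 (adjusted p = 0.0430 from limma).

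The next 2 rises were at 2-probe sites. On chromosome 4, chr4:61966656-61966804 had levels of 0.51, -0.41 and 0.01 in Mdr2-/+ and 2.29, 2.54 and 2.27 in Mdr2-KO replicates 1 to 3. This gave a difference of 2.33 with a standard error of 0.23 (limma, adjusted p = 0.00694), and its 2 probes rose by 2.44 and 2.21. On chromosome 1, chr1:73970262-73970547 had levels of 0.46, 0.00 and 0.13 in Mdr2-/+ and 2.07, 2.28 and 2.01 in Mdr2-KO replicates 1 to 3. Here the difference was 1.92 with a standard error of 0.15 (limma, adjusted p = 0.00526), but it was uneven between the probes, at 2.83 and 1.02. At both sites the lowest Mdr2-KO liver stood more than 1 above the highest control, with Mdr2-/+ replicate 1 the highest control.

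The remaining rises of the 8 largest had log2 differences between 1.52 and 1.79. They were chr7:33842105-33842279 (1.79, adjusted p = 0.0214 from limma), chr18:23453747-23454038 (1.74, adjusted p = 0.0214), chr2:92201862-92201906 (1.58, adjusted p = 0.0243) and chr14:64215753-64215962 (1.52, adjusted p = 0.0417). At the chromosome 7 site the levels were -0.48, -0.996 and -0.64 in Mdr2-/+ and 0.99, 1.65 and 0.60 in Mdr2-KO replicates 1 to 3. At the chromosome 18 site they were 0.70, 0.20 and 0.44 in Mdr2-/+ and 1.87, 2.78 and 1.91 in Mdr2-KO livers. Here too no Mdr2-KO liver reached down to a control. The site on chromosome 2, of 1 probe, had 1.54, 0.73 and 0.88 in Mdr2-/+ and 2.63, 2.99 and 2.27 in Mdr2-KO livers, so that it was already above the array median in controls. At the chromosome 14 site the values were 0.61, -0.28 and 0.06 in Mdr2-/+ and 1.55, 2.21 and 1.20 in Mdr2-KO livers. Loess within arrays took the differences on chromosomes 4, 1, 7 and 18 to 0.84, 0.63, 0.79 and 0.48, and normexp took that on chromosome 14 to 0.57. MeDIP signal at all 8 rises was above background on all 6 arrays.

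**Figure D4:**
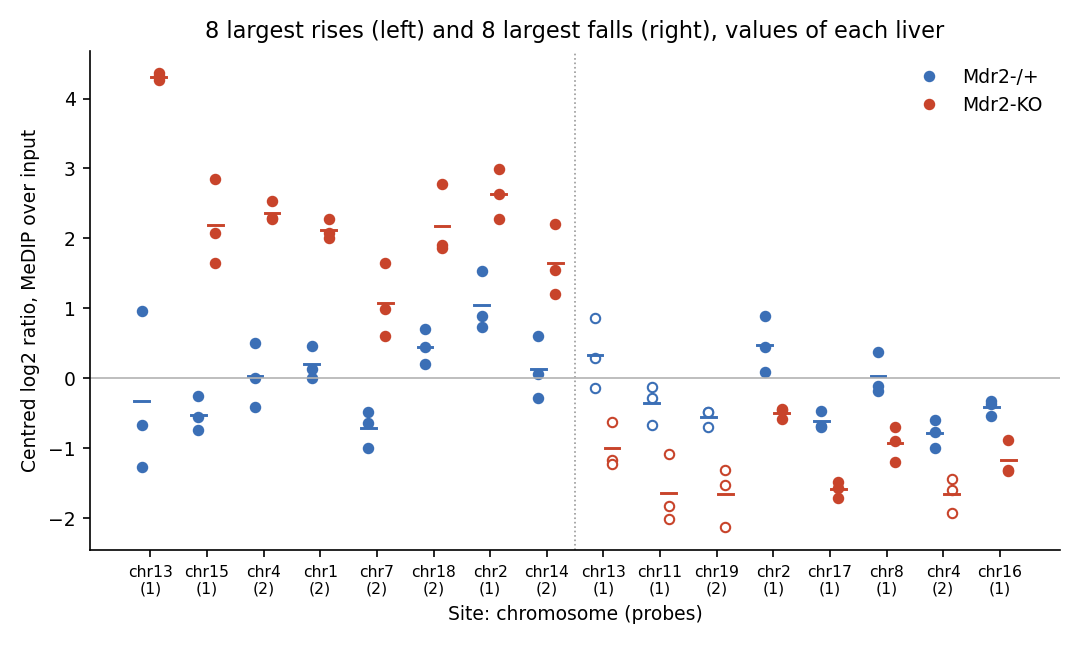
Level (centred log2 ratio of MeDIP over input, vertical axis) of each liver at the 8 largest rises and, right of the dotted line, the 8 largest falls among the called isolated sites, labelled by chromosome with the number of probes in parentheses. Blue is Mdr2-/+, red is Mdr2-KO, bars are means of 3 livers, and open circles mark a genotype whose MeDIP signal was not above background on any array. The genotypes are apart at each site, and all open circles are on the side of the falls.

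The falls were smaller, and those with the most negative ratios were dim. At 3 sites no array of either genotype had MeDIP signal well above background, so no fold is given for them. These were the 1-probe sites chr13:59567336-59567380 and chr11:86360283-86360332 and the 2-probe site chr19:41535418-41535614, each of which passed the test on ratios of such low signals. At the 2-probe site chr4:94653162-94653510 the MeDIP signal was above background on 2 of 3 Mdr2-/+ arrays and on no Mdr2-KO array, with a measured difference of -0.87 (adjusted p = 0.0392 from limma), -0.34 after normexp, and no fold, because the controls' mean was below the background bound of the Mdr2-KO arrays.

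The other falls were at single probes, and at 3 of these 4 the MeDIP signal was above background on all 6 arrays. At chr17:6063038-6063082 the level was -0.68, -0.46 and -0.70 in Mdr2-/+ replicates 1 to 3, and -1.48, -1.57 and -1.71 in Mdr2-KO replicates 1 to 3. The groups did not overlap, with a difference of -0.97 (standard error 0.12, adjusted p = 0.0144 from limma) that became -0.073 after normexp. At chr2:25187110-25187156 it was 0.90, 0.10 and 0.44 in Mdr2-/+ and -0.46, -0.59 and -0.44 in Mdr2-KO livers. That put every control above the array median and every Mdr2-KO liver below it, with a difference of -0.97 (adjusted p = 0.0437 from limma), or -0.20 after normexp. The site chr16:58613378-58613423 had -0.32, -0.36 and -0.53 in Mdr2-/+ and -0.88, -1.33 and -1.31 in Mdr2-KO livers, a difference of -0.77 (adjusted p = 0.0427 from limma) that became 0.02 after normexp. At chr8:13890377-13890421, with -0.18, 0.37 and -0.11 in Mdr2-/+ and -1.20, -0.90 and -0.70 in Mdr2-KO livers, the difference was -0.96 (adjusted p = 0.0430 from limma), or -0.36 after normexp, and the MeDIP signal was above background on 1 of 3 Mdr2-KO arrays.

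None of the 16 sites kept its call without Mdr2-KO replicate 1, although each difference there was between 0.855 and 1.19 times its value from all livers. Without Mdr2-/+ replicate 1 all 16 were still called. Leaving out Mdr2-/+ replicate 2 ended 12 calls and Mdr2-/+ replicate 3 ended 14, with all 8 falls lost in each case, and leaving out Mdr2-KO replicate 2 or 3 ended 10 and 8.

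Neighbouring runs gave another view of the calls. Of the 43 sites called higher, 21 had a neighbour within 1 kb. The neighbour's difference was above 0 at all 21, with a median of 0.85, and 12 of these neighbours were called higher themselves. Over all runs tested, 3.50% were called higher. At 2 places the neighbour was itself an isolated site on the list: chr2:28733341-28733463 with chr2:28733940-28734075, and chr18:23453218-23453262 with chr18:23453747-23454038. Each of these pairs is counted from both sides among the 12. Of the 12 sites called lower, 8 had a neighbour within 1 kb, all 8 being 1-probe sites. Their neighbours had a median difference of -0.04, with 5 of 8 below 0 and none called lower, where 0.166% of all runs tested were. Over the 309 isolated sites whose neighbour within 1 kb held 3 or more probes, 59.5% had a difference of the same sign as the neighbour. Of the called sites, 11 of the 21 rises and 3 of the 8 falls had such a neighbour, so the sets are unlike. MeDIP fragments can span probes this close, so a site and its neighbour are not independent measurements.

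Within 2-probe sites most rises had the same direction at both probes, though not always a like size. Of the 29 called higher, 28 had both probes above 0, and the exception was chr9:21740323-21740557, where the probes differed between genotypes by -0.06 and 1.54. Some of the 28 rested mainly on 1 probe. The probes differed by 0.05 and 1.72 at chr12:11176361-11176491, and by 1.26 and 0.06 at chr3:88144090-88144355. Both of the called 2-probe falls had both probes below 0. Since the call used the mean of the 2 probes, these counts give only the direction at each probe and do not support the calls.

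Where single probes were fitted in place of runs, 7 of 626 probes of 1-probe sites were called higher (1.12%) and 1 lower (0.160%). The shares were 1.17% and 0.0485% for the probes of 2-probe sites, and 2.01% and 0.131% for the probes of longer runs. At an unadjusted p under 0.05 the probes of 1-probe sites gave 7.83% higher and 6.23% lower, and those of longer runs 12.3% and 4.94%. On this footing, with the same number of spots behind each value, rises outnumbered falls at all 3 kinds of probe.

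The genotype difference was also read by level. The median difference was -0.03 at the 673 sites with a level below 0, 0.03 at the 638 sites between 0 and 2, and 0.13 at the 345 sites above 2. For longer runs the corresponding medians were -0.06, 0.10 and 0.21. For the isolated sites above 2 the median level was 4.31, 3.40 and 3.36 in Mdr2-/+ replicates 1 to 3, and 3.92, 3.90 and 3.81 in Mdr2-KO replicates 1 to 3. Mdr2-/+ replicate 1 lay above every Mdr2-KO liver and the other 2 controls lay below, so the genotypes overlapped. That array also had the widest spread of log2 ratios, with an SD of 1.83 against 1.52 to 1.75 on the others, and the part of this spread in the levels was not tested. With level bands set from all 6 livers, 2 of the 345 isolated sites above 2 were called higher (0.580%) and 0 lower. The median residual SD there was 0.42. Of the 1554 longer runs above 2, 80 were called higher (5.15%) and 1 lower, with a median residual SD of 0.41.

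Isolated sites were spread over all of chromosomes 1 to 19 and made up 7.57% (chromosome 16) to 13.7% (chromosome 12) of the runs on each. Their median level was highest on chromosome 18, at 1.10. There 4 of 50 sites were called higher and 0 lower, against 2.60% and 0.725% of all isolated sites tested. These calls include the neighbouring pair chr18:23453218-23453262 and chr18:23453747-23454038. Chromosome 14, where the median level of isolated sites was 0.20, also had 4 called higher, of 46, and 0 lower. Every chromosome except 5, 8 and 19 had an isolated site called higher.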

How the data were processed

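MeDIP and input DNA of 6 livers had been hybridised to Agilent mouse CpG island arrays. The authors deposited scanner output whose processed intensities Feature Extraction (version 10.5.1.1 per the file headers, 8.5.1.1 in the submitters' processing notes) had corrected for background and dye, without normalization between arrays. They also deposited a table of probe scores, scale not stated, which served as an alternative. Its Mdr2-/+ columns 1, 2 and 3 correlated best with scanner replicates 2, 3 and 1.

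Here log2 ratios of the processed red over green intensity were centred on each array's median, and 91 probes were left out because a spot was an outlier on some array. Probe starts came from the scanner files, and 74 probes on chromosomes 1 to 19 list a start after the end. Runs were compared with limma 3.58.1 in R 4.3.3 (moderated statistics over all 15097 runs with a value, Benjamini-Hochberg adjustment), and values per array by exact tests over arrays (64 sign patterns or 20 regroupings). The labels give each array as a biological replicate, and precision is limited by how few arrays there are. The scripts were tested on simulated data. Figures were drawn with matplotlib 3.10.9.

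The members and lists were chosen with earlier results of these data known. Sites named are the 8 largest rises and falls among called isolated sites whose genotypes did not overlap, and the 3 highest and lowest levels where input was above background on all arrays. Sites singled out for their neighbours or probes were chosen after their values were seen. Alternatives were other background corrections, normalizations, filters, joining distances and variance models, blocks, array weights, the deposited scores and leaving out each array.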

Additional observations from a re-analysis of the deposited data

How the results depend on the processing

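The higher level of isolated sites kept its direction, as a mean over livers, under every alternative for which it was computed. It was not computed from the deposited scores. The difference was 0.15 (p = 0.0625, exact sign-flip test) after normexp, where its sign was not the same in all 6 livers. With probes joined at 250 and 1000 bp it was 0.14 and 0.68 (p = 0.03125 for each, exact sign-flip test). It was 0.42 to 0.44 with 1 liver left out, where 5 livers cannot go below p = 0.0625 in the exact test. The difference between remote and close sites was 0.17 after normexp and 0.59 to 0.64 with 1 liver left out, under the same limit. Normexp moved the median difference over all runs from 0.01 to 0.11.

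The calls between genotypes were the least stable values, and the cause was not tested. Isolated sites called higher and lower numbered 0 and 0 after normexp, 19 and 5 after loess, 77 and 72 after quantile normalization, 104 and 33 with arrays divided by their SD, 152 and 21 with probes joined at 250 bp, 23 and 4 at 1000 bp, 28 and 3 with the spread estimated within size classes, 79 and 40 with a trend in the spread, 26 and 2 with the slide as a random block, 1 and 1 with it fixed, 289 and 89 with array weights, and 105 and 55 from the deposited scores. Fitted as single probes, 31 and 2 of 2686 probes were called. The sets differed in size, so not all of these counts can be compared directly. With probes joined at 500 bp 1656 isolated sites were tested, against 6405 at 250 bp and 1088 at 1000 bp. The deposited scores covered 1266. With 1 liver left out the counts ran from 0 to 314 higher and 0 to 59 lower. At longer runs they ran from 2 to 2374 and from 0 to 228. A fall on chromosome 16, -0.77, became 0.023 after normexp.

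With the replicate number as a block 17 sites were called higher and 5 lower, 16 and 4 of them among the 43 and 12. Deviations of same-numbered livers had correlations of 0.11, -0.08 and 0.11, and those of differently numbered livers -0.20 to 0.18. With 3 livers per genotype these values cannot decide whether the numbers pair the livers.

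The genotype shift of isolated sites, -0.02, became 0.057 with input above background on all arrays, 0.058 with probes joined at 1000 bp, and -0.043 to 0.024 with 1 liver left out. Its difference from the shift of longer runs, -0.01, became 0.0084 after quantile normalization, 0.034 with that input filter, 0.067 at 1000 bp, and -0.027 to 0.019 with 1 liver left out. Sites with a delta Z of 0.7 or more and of -0.7 or less numbered 174 and 0 after normexp, 138 and 40 at 250 bp, 15 and 4 at 1000 bp, 68 and 28 at a threshold of 0.5, 7 and 0 at a threshold of 1, 60 and 24 with Z scaled by the median absolute deviation, and 20 to 36 and 7 to 14 with 1 liver left out. Loess gave 13 and the input filter 3 in the lower direction. These counts too were over 6405 sites at 250 bp, 1088 at 1000 bp and 1439 with the input filter, against 1656 otherwise. The 2 probes of a site lay on the same side of 0 at 67.5% of sites per array, and at 65.0% after normexp, 63.4% after loess, 62.5% at 250 bp and 70.0% at 1000 bp. MeDIP signal was above background at 81.8% of probes of isolated sites, or 93.3% with the input filter, so dim signal limits the low end of the levels.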

Other observations

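Chromosome X, which the runs above leave out, held 36 isolated sites, 15 of them with 1 probe. Their median level was 1.15, against 0.22 for the longer runs of that chromosome. At 6 of these 36 sites all Mdr2-KO livers lay above all Mdr2-/+ livers and at 4 all lay below. Over all runs tested above, which leave out chromosome X, the corresponding shares were 15.6% and 10.5%. Whether chromosome X differed from them was not tested. The median genotype difference of the 36 sites was 0.13.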
